A study of Mus musculus with 22 samples.

Results

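Fibroblast growth factors (FGFs) are secreted ligands that bind tyrosine kinase receptors on the cell surface together with heparan sulphate, and the receptors signal through RAS and the kinases RAF, MEK and ERK. In pluripotent cells this route is known to drive the exit from the naive state: FGF4 is the ligand that naive mouse embryonic stem cells (mESCs) make themselves, FGFR1 is their main receptor, and a MEK inhibitor in the medium keeps the route shut. FGF5 is the classical marker of the epiblast that has left the naive state, FGF8 and FGF17 are close relatives made in the primitive streak and at the midbrain boundary, and FGF15 is made in neural tissue and later in the gut.

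The genes described are 5 FGF ligands (Fgf4, Fgf5, Fgf8, Fgf15, Fgf17) and the 4 FGF receptor kinases (Fgfr1, Fgfr2, Fgfr3, Fgfr4). They are the 9 rows of a table of 34489 genes whose name is 1 of these symbols. RNA was sequenced in 22 libraries of mouse cells. Primed epiblast stem cells (mEpiSCs) of 2 lines gave 1 library each. Oct4GIP carries an Oct4 promoter-driven eGFP and puromycin resistance transgene and was kept in FGF2 and Activin A without feeder cells. 129/MSM was derived from the embryos of a 129X1/SvJ female and an MSM/Ms male and was kept in the same factors on mouse embryonic fibroblast feeders. Oct4GIP cells on feeders were then moved to Basal medium alone or with 2iL (a MEK inhibitor, a GSK3 inhibitor and the cytokine LIF), the AMPK activator AICAR, or AICAR+LIF, and the cultures were sequenced on day 8 (d8, 4 libraries) and day 16 (d16, 4 libraries). Cells from AMPK activator cultures were then passaged on gelatin in 2iL. Oct4GIP cells from AICAR and AICAR+LIF were sequenced after 2 passages and after 3 passages (d16+2-3p, 4 libraries). After 10 passages (d16+10p, 7 libraries) the Oct4GIP cells had been treated with AICAR or with A769662, a direct AMPK activator, each alone and with LIF, or with metformin+LIF, metformin being another AMPK activator, and the 129/MSM cells with AICAR or AICAR+LIF. Naive mESCs of the Rex1-GFP reporter line, kept on gelatin in 2iL like the expanded cells, gave 1 library, which entered no test. Each combination of line, treatment, day and passage was sequenced once, so treatments, passages and lines all add to the spread of a group. The labels name no separate cultures, and the p-values measure only the spread between these libraries, part of which may be technical.

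The total was 438771 to 5290163 counts per library, with a median of 2848382. The AICAR and AICAR+LIF libraries of d8 had the smallest totals, 956357 and 438771 counts. Levels are given as CPM, the count divided by the library total per 1000000 counts, scaled by TMM factors, and 3 counts, the floor used here, correspond to 0.565 to 5.93 CPM depending on the library. The 10 naive markers summed to 3825 CPM in the naive mESCs, 2549 to 4523 CPM in the 11 expanded libraries, and 21.6 to 140.1 CPM in the primed cells and the early cultures. The 9 primed epiblast markers summed to 610.9 CPM in Oct4GIP and 1800 CPM in 129/MSM primed cells. The 13 feeder or mesenchymal markers all had counts at d8 and at d16 and summed to 3911 to 4271 CPM at d8 and 6350 to 53686 CPM at d16, to 89.0 CPM in Oct4GIP and 968.0 CPM in 129/MSM primed cells, and to at most 151.6 CPM after expansion. In the naive mESCs 6 of these 13 markers (Col3a1, Col6a1, Dcn, Lum, Acta2 and Tagln) had no count. The 8 neural markers summed to 1013 to 4850 CPM at d8, 548.9 to 1036 CPM at d16 and at most 361.9 CPM elsewhere. The 6 endoderm markers reached 4060 CPM in a d16 library and 379.6 CPM in 129/MSM primed cells, and the 6 muscle markers stayed at or below 130.5 CPM. In bulk RNA, fewer cells of a type and less RNA per cell cannot be told apart.

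Fgf4 was high in naive and expanded cells and Fgf5 in primed cells, and both were low in the early cultures. The 250 bases before the start of each are shown so that both regions can be read beside the levels. The sequences are RefSeq's for build GRCm38.p6, on the plus strand, 5′ to 3′. That of Fgf4 is chr7:144861136-144861385, directly before the first exon of its main transcript, and that of Fgf5 is chr5:98253934-98254183. Capitals mark every match on either strand to the GC box GGGCGG, to CCAAT, to the TATA box TATAAA or to its variant TATATA.
Fgf4: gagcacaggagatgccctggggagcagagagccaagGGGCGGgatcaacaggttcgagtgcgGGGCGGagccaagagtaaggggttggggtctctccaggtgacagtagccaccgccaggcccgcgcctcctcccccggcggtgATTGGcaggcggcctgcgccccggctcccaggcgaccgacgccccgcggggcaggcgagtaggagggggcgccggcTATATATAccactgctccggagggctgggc
Fgf5: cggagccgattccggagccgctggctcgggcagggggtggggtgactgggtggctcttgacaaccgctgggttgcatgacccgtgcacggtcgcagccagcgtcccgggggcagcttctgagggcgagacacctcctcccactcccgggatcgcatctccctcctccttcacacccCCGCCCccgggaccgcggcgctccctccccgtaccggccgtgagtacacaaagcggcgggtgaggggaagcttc
The Fgf4 region held 2 matches to GGGCGG, 1 to CCAAT on the other strand and 2 overlapping matches to TATATA. The Fgf5 region held 1 match to GGGCGG, on the other strand, and none to the other 3. Of 32851 such regions of 250 bases in the table, 32.7% held GGGCGG, 33.8% CCAAT, 12.4% TATAAA and 5.25% TATATA. Both regions were rich in CpG, with 21 in Fgf4 and 24 in Fgf5 against a median of 6.

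Each of the 9 genes had its own pattern over the groups, and the leading ligand among the 5 differed from state to state. Of these 5, Fgf4 was the main ligand of naive and expanded cells, Fgf5 and Fgf8 of primed cells, and Fgf15 of the d8 cultures. At d16 Fgf15 led only with AICAR or AICAR+LIF. Other FGF genes, described further below, did not enter this ranking. Fgfr1 and Fgfr2 were above the floor in all 22 libraries. Fgfr2 and Fgfr3 were higher in every early culture than in any other library. Fgfr4 was higher in most early cultures but had no count at d8 with AICAR or AICAR+LIF.

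**Figure D1:**
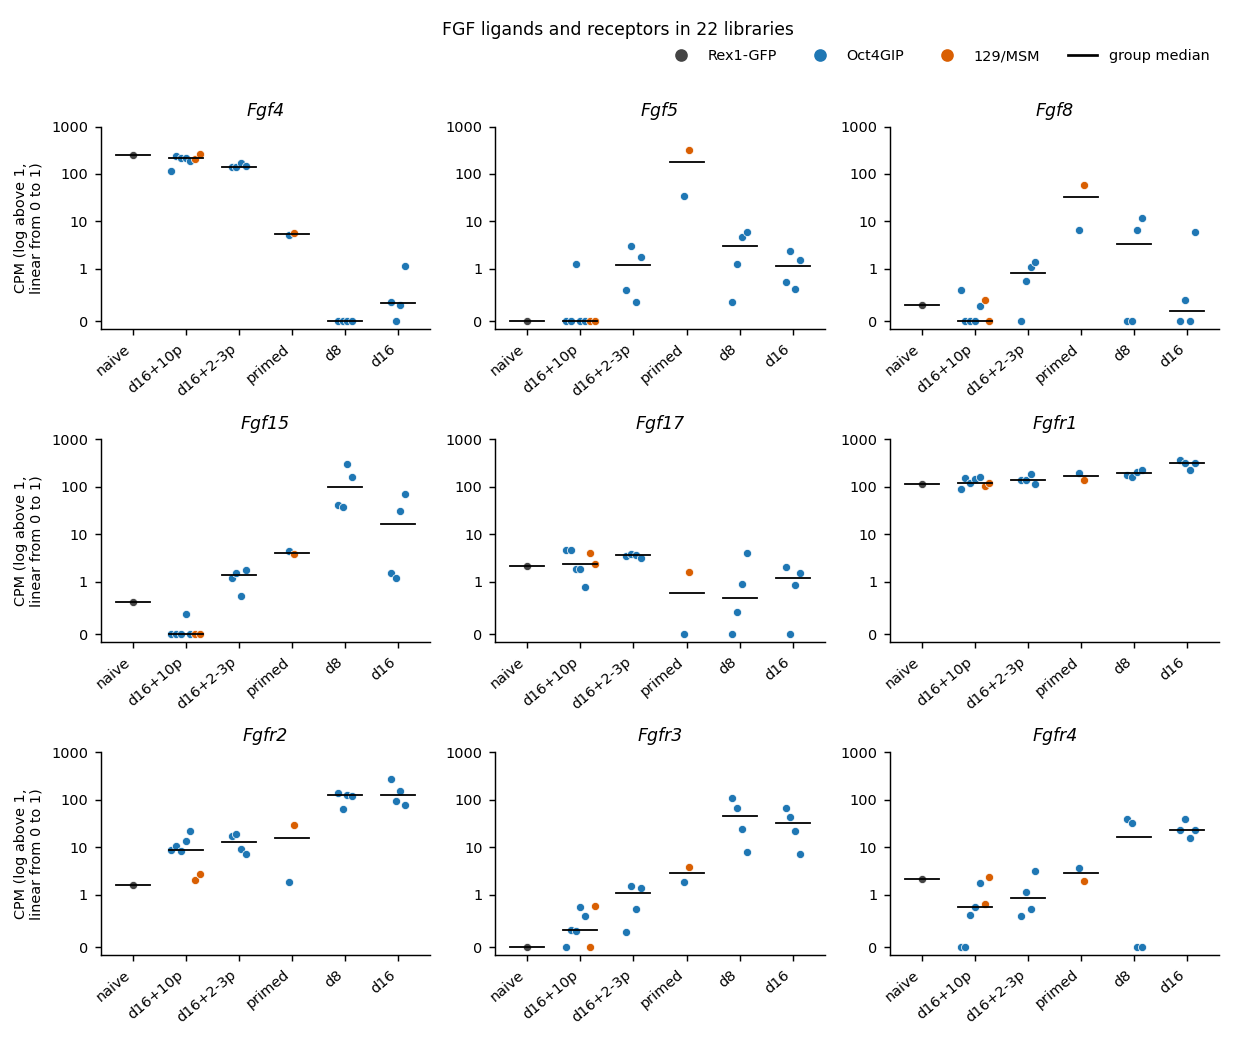
Level of each gene in CPM (vertical axis, logarithmic above 1 and linear from 0 to 1) in the 6 groups; each point is 1 library, coloured by line, and the bar is the group median. Fgf4 lies at 116 CPM or above in every naive and expanded library and at 5.68 CPM or below elsewhere, and Fgfr1 stays between 90.7 and 366.5 CPM.

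Fgf4 (chr7:144847367-144865243, plus strand) was at 251.0 CPM in the naive mESCs. It was at 116.0, 212.3 and 265.7 CPM (lowest, median, highest) in the 7 d16+10p libraries. The 4 d16+2-3p libraries, in the order AICAR and AICAR+LIF after 2 passages and then after 3, were at 137.6, 136.8, 168.5 and 144.4 CPM. Primed cells had 5.15 CPM in Oct4GIP and 5.68 CPM in 129/MSM, so that both lines were far below every expanded library. No Fgf4 count was found in the 4 d8 libraries, and those of d16 had 0 to 3 counts. The mean of 205.2 ± 47.1 CPM (SD, n = 7) after 10 passages was 37.9 times that of primed cells, a log2 fold change of 5.23 ± 0.37 (SE, adjusted p = 1.23e-08, edgeR). Between 2 or 3 and 10 passages it was 1.40 times higher, and the groups overlapped (log2 fold change 0.48 ± 0.20, adjusted p = 0.139, edgeR). This value depended on 1 library, since without the AICAR library of Oct4GIP after 10 passages, whose level of 116.0 CPM was the lowest, the log2 fold change was 0.58 (adjusted p = 0.0447, edgeR).

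Fgf5 (chr5:98254184-98277030, plus strand) had 91 counts or 33.5 CPM in Oct4GIP primed cells and 1008 counts or 318.4 CPM in 129/MSM primed cells. No count was found in the naive mESCs or in 6 of the 7 d16+10p libraries, and the A769662 library had 4. The d16+2-3p libraries had 1 to 8 counts, those of d8 1 to 5 and those of d16 2 to 6. Every library outside the primed group was thus at or below 5.93 CPM. After 10 passages the log2 fold change from primed cells was -9.44 ± 0.80 (SE, adjusted p = 2.52e-08, edgeR).

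Fgf8 (chr19:45736798-45742915, minus strand) also was highest in 129/MSM primed cells, at 58.1 CPM, against 6.62 CPM in Oct4GIP primed cells. At d8 it had 7 counts with AICAR and 6 with AICAR+LIF, or 6.63 and 11.9 CPM, and none in Basal medium or 2iL. At d16 it had 16 counts (6.02 CPM) with AICAR+LIF, 1 count in 2iL and none in the other libraries. The 7 d16+10p libraries held 3 counts in all. The rate in primed cells, with counts pooled over libraries, was 217.8 times theirs (95% exact interval 73.5 to 1065, for counting error only). The fit gave an adjusted p of 0.000135 (edgeR). Of the 202 primed counts 184 were in 129/MSM and 18 in Oct4GIP. The pooled ratio and its interval thus describe neither line by itself, and the interval leaves out the difference between the lines.

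Fgf15 (chr7:144896531-144900953, plus strand), the mouse counterpart of human FGF19, starts 31287 bases beyond the end of Fgf4. At d8 it was at 40.9 CPM in Basal medium, 38.2 in 2iL, 301.2 with AICAR and 158.2 with AICAR+LIF. At d16 the same treatments gave 1.51, 1.20, 31.5 and 71.9 CPM. Primed cells had 4.41 and 3.79 CPM, the d16+2-3p libraries 0.726 to 1.76 CPM, and the 7 d16+10p libraries held 1 count in all. Fgf4 and Fgf15 were thus never both high in a library, but both were low in primed cells and at d16 in Basal medium and 2iL. Within 200000 bases of the pair, Fgf3 was at 5.90 CPM in naive mESCs and had group means of 0.158 to 3.43 CPM elsewhere, and the cell cycle gene Ccnd1 was highest in naive mESCs, at 200.8 CPM, and had its lowest mean at d16, 62.7 CPM.

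Fgf17 (chr14:70636203-70642268, minus strand) was low in every library, with at most 14 counts. It ranged from 0.894 to 4.71 CPM after 10 passages and from 3.16 to 3.80 CPM after 2 or 3 passages. The primed libraries had 0 and 5 counts, so its differences are close to what this depth can show, and none of its comparisons passed the test by edgeR.

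Fgfr1 (chr8:25513654-25575718, plus strand) differed least between groups. It was at 115.1 CPM in naive mESCs, at 90.7, 122.7 and 157.3 CPM (lowest, median, highest) after 10 passages, at 141.4, 142.5, 188.8 and 117.0 CPM after 2 or 3 passages, and at 195.7 and 142.1 CPM in Oct4GIP and 129/MSM primed cells. The d8 libraries lay between 160.5 and 223.5 CPM and those of d16 between 229.1 and 366.5 CPM, above every other library. The log2 fold change of d16+10p against primed was -0.40 ± 0.21 (SE, adjusted p = 0.153, edgeR), and the groups overlapped.

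Fgfr2 (chr7:130162451-133123350, minus strand), whose annotated span reaches over 69 other genes, is the receptor best known from epithelia and extra-embryonic tissue. It was at 1.55 CPM in naive mESCs, 1.84 CPM in Oct4GIP primed cells and 29.1 CPM in 129/MSM primed cells. After 10 passages the 5 Oct4GIP libraries were at 8.83, 10.7, 8.32, 13.6 and 22.04 CPM, and the 2 of 129/MSM at 2.04 and 2.74 CPM. The d16+2-3p libraries had 7.03 to 18.6 CPM. Those of d8 (63.9 to 136.1 CPM) and of d16 (76.4 to 268.1 CPM) were above all others.

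Fgfr3 (chr5:33721674-33737068, plus strand) and Fgfr4 (chr13:55152640-55168759, plus strand) were near the floor outside the early cultures. Fgfr3 had no count in naive mESCs, at most 2 in a d16+10p library and at most 4 in a d16+2-3p library, and 1.84 and 3.79 CPM in primed cells. At d8 it was at 107.5 CPM in Basal medium, 66.8 in 2iL, 24.6 with AICAR and 7.91 with AICAR+LIF, and at d16 at 65.8, 43.7, 22.2 and 7.15 CPM. The order of the 4 treatments was the same on both days. At d8, however, the AICAR value of Fgfr3 rests on 26 counts and that of AICAR+LIF on 4, near the floor. Fgfr4 was at 39.1 and 31.9 CPM in Basal medium and 2iL at d8, and had no count with AICAR or AICAR+LIF. At d16 it was at 22.4, 39.3, 15.9 and 23.3 CPM in Basal medium, 2iL, AICAR and AICAR+LIF. Elsewhere it was at or below 3.68 CPM.

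To compare genes with each other, CPM was divided by the length of the longest coding transcript in kb. On this scale the 5 ligands together had 84.7 CPM per kb in naive mESCs, of which Fgf4 made up 97.8%. Fgf4 was 96.9% ± 2.3 (SD, n = 7) of the ligand sum after 10 passages and 92.2% ± 1.9 (n = 4) after 2 or 3 passages. In primed cells Fgf5 made up 57.7% and 70.0% and Fgf8 24.4% and 27.3%, and the sum was 23.2 CPM per kb in Oct4GIP and 182.0 in 129/MSM. At d8 Fgf15 was 94.2% ± 6.1 (n = 4) of the sum. The receptor sum was 23.9 CPM per kb in naive mESCs, 28.0 ± 6.3 after 10 passages, 32.9 ± 5.7 after 2 or 3, and 36.4 and 40.8 in primed cells. It was 81.8 ± 15.2 at d8 and 111.4 ± 31.8 at d16 (SD, n = 4), so every early culture had more receptor RNA than every other library. Fgfr1 was 91.1% ± 3.9 of the receptor sum after 10 passages but 48.2% ± 11.4 at d8 and 56.3% ± 10.7 at d16, where Fgfr2 made up 31.7% ± 8.2 and 29.8% ± 11.2.

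**Figure D2:**
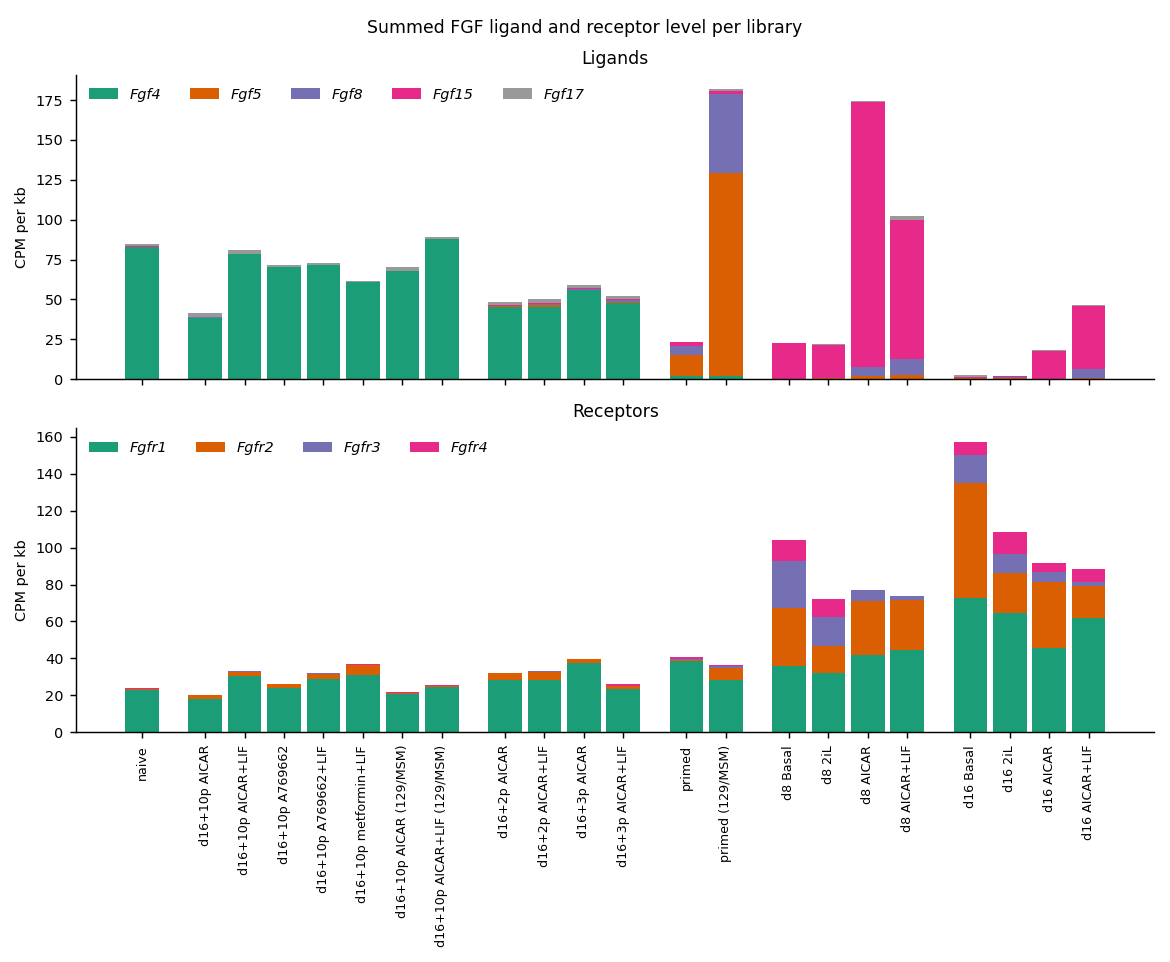
Sum of the 5 ligands (top) and of the 4 receptors (bottom) in each of the 22 libraries, in CPM per kb of longest coding transcript, with each gene's part coloured. Fgf4 fills the ligand bars of naive and expanded cells, Fgf5 and Fgf8 those of primed cells and Fgf15 those of d8, and the receptor sum is 72.0 CPM per kb or more in each early culture and 40.8 or less in every other library.

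The comparison of d16+10p with primed cells asks what separates the reverted cells from those they came from. Of the 9 genes, Fgf4 rose and Fgf5, Fgf8, Fgf15 and Fgfr3 fell at an adjusted p under 0.05, while 36.6% of all 18739 genes tested passed, 16.7% higher and 19.9% lower. The median log2 fold change of the 9 was -1.51, and -0.014 over all genes. Fgf15 (-5.39 ± 1.81, adjusted p = 0.0238, edgeR) rested on 1 count after 10 passages against 24 in primed cells, a pooled ratio of 77.6 (95% exact interval 12.7 to 3192, counting error only). Fgfr3 (-2.64 ± 1.01, adjusted p = 0.0455, edgeR) was called under 5 of 14 alternative settings. Leaving out any of 7 of the 9 libraries ended its call, the 2 exceptions being the A769662+LIF library of Oct4GIP and the AICAR+LIF library of 129/MSM, and its adjusted p was 0.329 without 129/MSM primed cells and 0.388 with only Oct4GIP libraries (edgeR). That of Fgf15 ended under 5 of 15, among them limma voom (adjusted p = 0.0977) and leaving out either primed library (adjusted p = 0.101 without Oct4GIP and 0.0788 without 129/MSM, edgeR) or the A769662+LIF library, which held its only count (0.0533). The calls of Fgf4, Fgf5 and Fgf8 held under all 15.

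The fold change of Fgfr2 changed sign with the libraries used. Over both lines its log2 fold change was -0.66 ± 0.69 (SE, adjusted p = 0.496, edgeR), and with only Oct4GIP libraries it was 2.75 (adjusted p = 0.0489, edgeR), where the 1 primed library, with 5 counts, is assumed to vary like the other groups. Without the 129/MSM primed library but with all 7 reverted libraries it was 2.41 (adjusted p = 0.145, edgeR). The difference between the lines was itself tested. The change from primed to d16+10p was lower in 129/MSM than in Oct4GIP by a log2 fold of -6.35 ± 0.95 (adjusted p = 0.00545, edgeR, interaction of line and state), where 7.47% of 14506 genes passed, 3.06% higher and 4.41% lower. Fgfr2 was at 1.84 CPM in primed and at 8.32 CPM or more in reverted Oct4GIP cells, and at 29.1 CPM in primed and 2.74 CPM or less in reverted 129/MSM cells, and it was the only 1 of 7 genes tested that passed. With 1 primed library per line, the spread in this test comes from the reverted libraries alone, and line and library cannot be told apart. The 129/MSM primed library also had the higher feeder or mesenchymal sum (968.0 against 89.0 CPM) and endoderm sum (379.6 against 4.05 CPM), whose part in the result was not tested. After 10 passages Fgfr2 was lower in 129/MSM than in Oct4GIP, by -2.39 ± 0.52 (adjusted p = 0.0198, edgeR), 1 of 4 genes tested, where 9.03% of 13585 genes passed, 5.18% higher and 3.85% lower. This call was lost when either 129/MSM library was left out (adjusted p = 0.152 without AICAR and 0.141 without AICAR+LIF, edgeR). For Fgf5, at 33.5 CPM in Oct4GIP and 318.4 CPM in 129/MSM primed cells, the interaction was -6.12 ± 2.30 (adjusted p = 0.139, edgeR).

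Between 2 or 3 and 10 passages in 2iL, none of the 9 genes passed by edgeR at an adjusted p under 0.05, where 9.35% of all genes did, 4.75% higher and 4.61% lower. At an unadjusted p under 0.05 there were 2, Fgf4 and Fgf5, and 4290 of all 18739. Fgf15 had 0.726 to 1.76 CPM in the 4 earlier libraries and 1 count in the 7 later ones, and the groups did not overlap (log2 fold change -3.77 ± 1.95, adjusted p = 0.259, edgeR). By DESeq2 it was the 1 gene called, with an adjusted p of 0.0292. LIF given with AICAR in the first 16 days left no called difference after expansion, where libraries were paired by line and passage. At an adjusted p under 0.05 by edgeR, 0 of 4 genes tested passed and 0 of 12940 overall. At an unadjusted p under 0.05 there were 310 genes, none of them among the 4.

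The first passages in 2iL were compared with the d16 cultures. Fgf4 was higher and Fgf15, Fgfr1, Fgfr2, Fgfr3 and Fgfr4 were lower in the expanded cells, 6 of 9, where 71.1% of all genes passed, 33.2% higher and 37.9% lower. The mean of Fgf4 was 323.0 times higher (log2 fold change 8.24 ± 0.37, SE, adjusted p = 6.60e-12, edgeR). The log2 fold changes of the receptors were -1.06 ± 0.19 for Fgfr1, -3.53 ± 0.62 for Fgfr2, -5.12 ± 0.77 for Fgfr3 and -4.13 ± 0.91 for Fgfr4 (SE). All 4 receptor genes were called under each of 15 alternative settings, among them only the AICAR and AICAR+LIF libraries at d16. For Fgf15 (-4.29 ± 1.04, adjusted p = 0.00107, edgeR) the ranges overlapped, and limma voom gave an adjusted p of 0.181. The median log2 fold change of all genes was -0.15 here. The feeder or mesenchymal sum was at least 6350 CPM at d16 and at most 151.6 CPM after 2 or 3 passages, and its part in these differences was not tested.

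In the early cultures against primed cells, which enter both comparisons, Fgf4 and Fgf5 were lower and Fgfr2 and Fgfr3 higher on both days, Fgf15 was called only at d8, and Fgf8, Fgfr1 and Fgfr4 only at d16. Markers of other cells differed too. Of the 13 feeder or mesenchymal markers 6 were higher than in primed cells at d8 and 13 at d16. Of the 8 neural markers 6 were higher on each day and 1, Nes, was lower at d16. Of 5 endoderm markers tested 4 were lower on each day and 1 was higher at d16. The primed endoderm sum was 379.6 CPM in 129/MSM and 4.05 CPM in Oct4GIP. Of 4 muscle markers tested 2 were lower at d8 and 1 at d16. The part of such cells in these results was not tested. At d8, 5 of 9 genes passed, where 27.7% of all genes did, 14% higher and 13.7% lower. Fgf15 (4.998 ± 1.27, SE, adjusted p = 0.00638), Fgfr3 (4.23 ± 0.92, adjusted p = 0.00207) and Fgfr2 (2.82 ± 0.81, adjusted p = 0.0134) were higher by edgeR. Fgf5 was lower (-6.39 ± 0.87, adjusted p = 3.83e-05, edgeR), and Fgf4, with no count in 4 libraries, was at least 12.2-fold lower than the primed mean (floor of 3 counts over the group, adjusted p = 8.38e-05, edgeR). Fgf8 (adjusted p = 0.0574) and Fgfr4 (adjusted p = 0.0630) did not pass by edgeR. Without the AICAR and AICAR+LIF libraries, which have the totals under 1000000, both did, with adjusted p of 0.00407 and 0.00167. Leaving out only the AICAR+LIF library gave 0.0265 for Fgf8 and 0.0291 for Fgfr4, leaving out only the AICAR library gave 0.0166 for Fgfr4, and without Oct4GIP primed cells Fgf8 had 0.0417 (adjusted p, edgeR). The call of Fgfr2 was lost without the Oct4GIP primed library (adjusted p = 0.131, edgeR), and that of Fgf15 without either primed library (adjusted p = 0.0596 without Oct4GIP and 0.0533 without 129/MSM, edgeR).

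At d16, 7 of 9 genes passed against primed cells, where 42.4% of all genes did, 22% higher and 20.4% lower. Fgfr1 (0.87 ± 0.24, SE, adjusted p = 0.00734), Fgfr2 (3.25 ± 0.82, adjusted p = 0.00337), Fgfr3 (3.60 ± 0.90, adjusted p = 0.00320) and Fgfr4 (3.17 ± 1.12, adjusted p = 0.0272) were higher by edgeR, so that all receptors were called in the same direction. Fgf4 (-3.49 ± 0.52), Fgf5 (-7.12 ± 0.84) and Fgf8 (-4.44 ± 1.25) were lower. Fgf15 was 6.47 times higher on average, but its 4 libraries lay on both sides of the primed ones (adjusted p = 0.0738, edgeR). Without the Basal library it passed (adjusted p = 0.0222) and likewise without that of 2iL (0.0260). Without the 129/MSM primed library the calls of Fgf8 (adjusted p = 0.313), Fgfr1 (0.142) and Fgfr4 (0.154) were lost, and that of Fgfr4 also without the Oct4GIP primed library (0.0866) or the 2iL library of d16 (0.0504).

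From d8 to d16, compared within treatments, Fgf15 fell by 3.14 ± 0.57 on the log2 scale (adjusted p = 0.0131, edgeR), 1 of 5 genes tested, where 24.2% of 14026 genes passed, 14.7% higher and 9.5% lower. It was lower at d16 in 4 of 4 treatments. The call was just lost without the Basal library of d16 (adjusted p = 0.0512, edgeR). Fgfr1 was higher at d16 in 4 of 4 treatments and did not pass (0.68 ± 0.23, adjusted p = 0.0691, edgeR), but it did without the libraries of totals under 1000000 (adjusted p = 0.0278, edgeR) and by limma voom (0.0441).

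**Figure D3:**
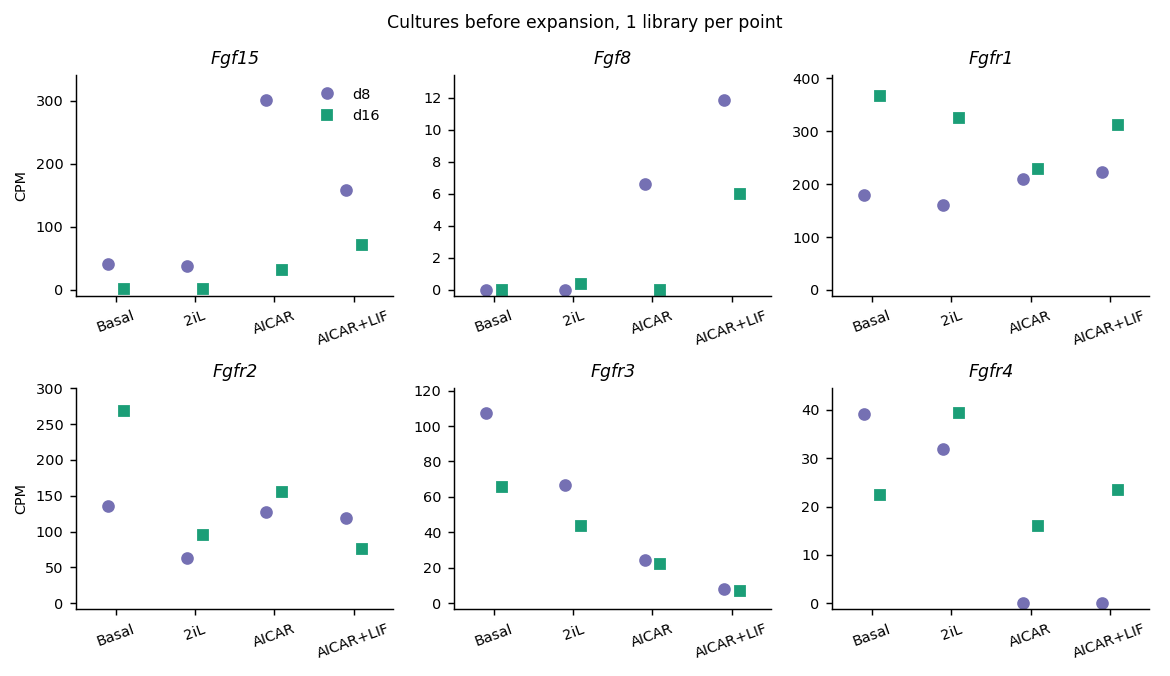
Level in CPM (vertical axis, from 0) of Fgf15, Fgf8 and the 4 receptors in the 8 early cultures by treatment (horizontal axis); circles are d8, squares are d16, and each point is 1 library. Fgf15 is at 158.2 and 301.2 CPM with AICAR at d8 and at 40.9 CPM or less without it. Fgfr3 steps down from Basal medium to AICAR+LIF on both days, where the d8 value of AICAR+LIF rests on 4 counts.

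AICAR was compared with its absence over both days, with AICAR and AICAR+LIF set against Basal medium and 2iL. Fgf15 was higher and Fgfr3 lower with AICAR, 2 of 5 genes tested, where 9.6% of 14026 genes passed, 3.54% higher and 6.06% lower. The log2 fold change of Fgf15 was 3.53 ± 0.51 (SE, adjusted p = 0.0100, edgeR), and both AICAR libraries were above both others on each day. That of Fgfr3 was -2.03 ± 0.39 (adjusted p = 0.0208, edgeR), with both AICAR libraries below both others on each day. Without the 2 d8 libraries with AICAR, whose totals are under 1000000, neither passed. The values were then 5.15 for Fgf15 (adjusted p = 0.0527, edgeR) and -1.91 for Fgfr3 (adjusted p = 0.140, edgeR). The call of Fgfr3 was also lost without any 1 of the d8 libraries of Basal medium (0.0592), AICAR (0.0611) or AICAR+LIF (0.0544). Fgfr4 was at least 18.5-fold lower with AICAR at d8 (floor of 3 counts over both libraries, against the mean of the other 2) and overlapped at d16, and over both days its log2 fold change was -1.78 ± 0.72 (adjusted p = 0.143, edgeR). DESeq2 called it (adjusted p = 0.0136), as did edgeR with no filter on low counts (2.90e-06). Fgf8 was at least 15.9-fold higher with AICAR at d8 by the same floor, and had too few counts to enter the fit; with no filter it was called over both days (adjusted p = 1.61e-07, edgeR). The neural marker sum at d8 was 4850 CPM in Basal medium, 3135 in 2iL, 1333 with AICAR and 1013 with AICAR+LIF, which is the same order as that of Fgfr3. At d16 it was 1036, 548.9, 671.0 and 658.6 CPM. The part of neural cells in these results was not tested.

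2iL, which holds a MEK inhibitor, was compared with Basal medium over 2 libraries each. None of 7 genes passed by edgeR, where 0.0129% of 15473 genes did, 0.00646% higher and 0.00646% lower, and 2 of the 7 had an unadjusted p under 0.05, as had 1049 of all 15473. Those were Fgfr2 (-1.31 ± 0.40, SE, adjusted p = 0.516) and Fgfr3 (-0.62 ± 0.24, adjusted p = 0.674), both lower in 2iL on 2 of 2 days. With no filter on low counts Fgfr2 was called (adjusted p = 0.0248, edgeR). At d16 the feeder or mesenchymal sum was 6350 CPM in Basal medium and 53686 in 2iL, the endoderm sum 4060 and 16.0 CPM, and the neural sum 1036 and 548.9 CPM, and their part in these values was not tested.

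The other genes of the pathway were described from lists, and each count stands beside the share of all genes tested. Of 12 other FGF genes tested, 5 differed between d16+10p and primed cells, 1 higher and 4 lower. This stands against 36.6% of all genes (16.7% higher, 19.9% lower). The median log2 fold change was -1.86 over the list and -0.014 over all genes. Fgf3 was higher, with 0.754 to 6.47 CPM in the 7 reverted libraries and 1 count in both primed libraries together. Fgf14, which like Fgf11, Fgf12 and Fgf13 acts inside the cell, was lower. It had 2.94 CPM in Oct4GIP and 6.63 in 129/MSM primed cells and 1 count in the 7 reverted libraries. Fgf18 was lower, with 2.21 and 2.53 CPM in primed cells and 3 counts in the reverted libraries. Fgf2, the factor supplied to primed cells in the medium, was called lower, but its primed counts were all in 129/MSM (26 counts, 8.21 CPM), and Oct4GIP primed cells had none, so that no decrease was seen within Oct4GIP.

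At d16, 5 of the 12 were higher than in primed cells and 1 was lower, against 22% and 20.4% of all genes. Fgf12 was at 8.66 to 60.1 CPM, Fgf1 at 6.60 to 16.04 CPM and the mesenchymal ligand Fgf7 at 1.70 to 16.6 CPM, with at most 3 counts of each in a primed library. Fgf10 was called lower on 129/MSM primed cells alone (150 counts, 47.4 CPM). Oct4GIP primed cells, the line of all d16 cultures, had no count of it, and the d16 libraries had 0.312 to 2.45 CPM. After the first passages 10 of the 12 were lower than at d16 and none was higher, against 37.9% and 33.2% of all genes, and all 13 feeder or mesenchymal markers were lower too. With AICAR 2 of 5 tested were lower, Fgf11 (-2.95 ± 0.40) and Fgf12 (-2.22 ± 0.47), against 6.06% of all genes.

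Of 15 co-receptors and binding proteins, 1 was higher and 9 were lower after 10 passages than in primed cells, against 16.7% and 19.9% of all genes, and 11 of the 13 feeder or mesenchymal markers were lower too. The higher gene was Klb, the co-receptor that FGF15 and FGF21 need. It was at 11.4 ± 4.8 CPM (SD, n = 7) after 10 passages and had no count in either primed library. In the naive mESCs it had 3 counts (0.931 CPM), below the 2.86 CPM of the lowest d16+10p library. Fgfbp3, a secreted carrier of FGFs, was at 51.1 CPM in Oct4GIP and 8.84 CPM in 129/MSM primed cells and at most at 1 count in a reverted library. The proteoglycan Gpc6 had 20.2 and 13.6 CPM in primed cells and at most 4.08 CPM after 10 passages (-3.71 ± 0.61). Flrt3, a membrane partner of FGF receptors, was called lower (-3.35 ± 0.81), but the lines differed. It went from 125.4 CPM in primed to 11.8 and 8.23 CPM in reverted 129/MSM cells, whereas Oct4GIP had no count in primed cells and 1.85 to 6.55 CPM after 10 passages, and the interaction of line and reversion was called (-10.34 ± 1.43, adjusted p = 0.00377, edgeR, with 1 primed library per line).

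Of 10 heparan sulphate enzymes, 4 were higher at d8 and 6 at d16 than in primed cells and none was lower, against 14% and 22% of all genes higher. After the first passages 8 were lower than at d16, against 37.9% of all genes. The feeder or mesenchymal markers were higher on the same days (6 and 13 of 13) and lower after the passages (13 of 13), and their part in these counts was not tested. The extracellular sulphatase Sulf1 was higher at d16 than at d8 (2.54 ± 0.22) and higher with AICAR (1.91 ± 0.23). Of the 19 cytoplasmic transducers 4 were higher and 6 lower after 10 passages than in primed cells, against 16.7% and 19.9% of all genes. Their median log2 fold change was 0.0097. Among them the adaptor Gab1 was higher (2.45 ± 0.31) and Braf lower (-0.94 ± 0.18).

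Of 12 feedback regulators and targets of the route, 5 were lower and 1 was higher after 10 passages in 2iL than in primed cells, against 19.9% and 16.7% of all genes. The ERK phosphatases Dusp4 (-6.41 ± 0.54) and Dusp6 (-5.72 ± 0.51) and the inhibitor Spry4 (-5.33 ± 0.66) were lower and the ETS factor Etv5 was higher (1.06 ± 0.38). Dusp6 was at 190.3 ± 110.6 CPM (SD, n = 2) in primed cells, 18.0 ± 3.0 CPM (n = 4) after 2 or 3 passages and 3.52 ± 1.71 CPM (n = 7) after 10. Between 2 or 3 and 10 passages 4 of the 12 were lower, against 4.61% of all genes, led by Spry4 (-5.78 ± 0.60), Dusp4 (-3.23 ± 0.58) and Dusp6 (-2.32 ± 0.48). At d8 4 and at d16 5 were lower than in primed cells, against 13.7% and 20.4% of all genes, and none was higher, with Etv5 at -4.32 ± 0.44 and -2.51 ± 0.38.

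**Figure D4:**
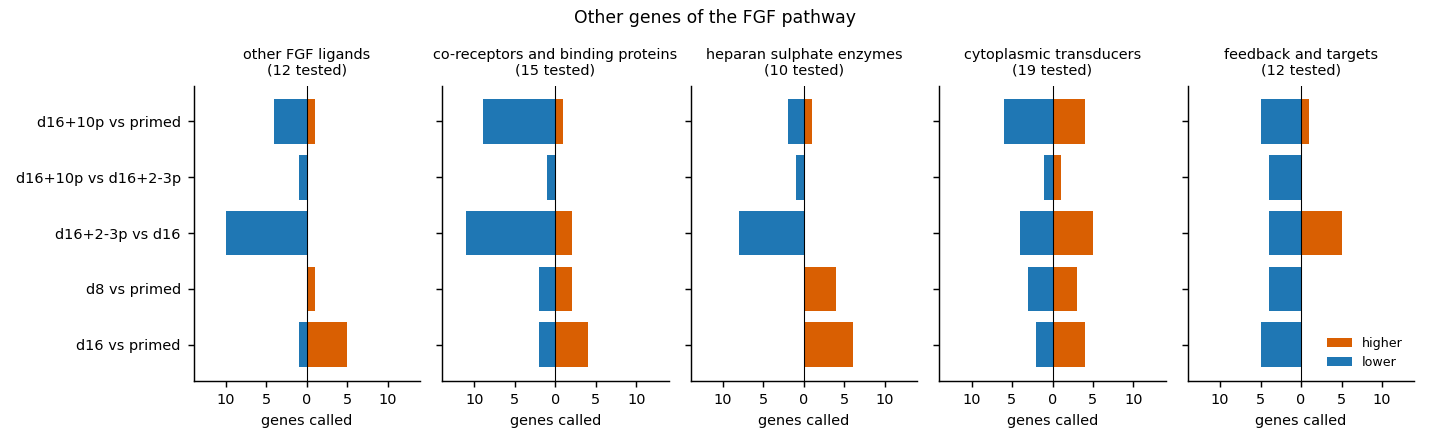
Number of genes in each of 5 pathway lists that were higher (right) or lower (left) at an adjusted p under 0.05 by edgeR, in 5 comparisons (rows); the number tested stands above each panel. The longest bars are the 11 co-receptors and binding proteins and the 10 genes listed as other FGF ligands that were lower after the first passages than at d16.

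Over the 22 libraries the genes most like Fgf4 among 10879 expressed genes, by Pearson r of log2 CPM, were Ptges3 (0.987), the naive factor Tfcp2l1 (0.984) and Alg13 (0.983). Those of Fgf15 were Ranbp6 (0.915), Cand2 (0.913) and Exoc5 (0.905). Those of Fgfr1 were led by Slc1a3 (0.905) and Stom (0.900), and those of Fgfr2 were Neto2 (0.935), Id2 (0.926) and the intermediate filament gene Vim (0.920). Fgfr3 was most like Tuba1a (0.959), Snn (0.958) and Syt11 (0.955), and Fgfr4 like Ttyh1 (0.890), Dynlrb1 (0.873) and Adgrb1 (0.869). Fgf5, Fgf8 and Fgf17 were too low for this. Among the 9 genes, Fgf4 and Fgfr3 had an r of -0.94 and Fgf4 and Fgf15 of -0.80. Fgf5 and Fgf8 had 0.77, but both lay below the level required above, so this value rests on few counts in most libraries. The libraries share groups and lines, so these values describe the series and carry no test.

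Of the transcript counts of Fgf4, 97.4% fell on Fgf4-201, of those of Fgf5 91.2% on the full-length Fgf5-201, and of those of Fgfr4 93.9% on Fgfr4-201. The counts of Fgfr1, Fgfr2 and Fgfr3 were spread over 19, 27 and 17 transcripts, of which the leading 1 held 13.1%, 13.97% and 14.9%, so the receptor forms with different ligand binding could not be told apart. Fgf15, Fgfr1 and Fgfr3 have annotated neighbours on the opposite strand within their span, and the libraries were made with a stranded kit; whether the counting used the strand is not given in the sources used here.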

How the data were processed

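RNA-seq data of 22 libraries were analysed. The authors made stranded mRNA libraries, mapped single reads with Bowtie2 2.2.5 to the cDNA and ncRNA of Ensembl release 100 (GRCm38), dropped those of MAPQ under 1, and deposited whole-number counts per gene and per transcript without normalization. From the deposited counts, CPM was computed with TMM factors, and groups were compared with edgeR 4.0.16 (quasi-likelihood test, filterByExpr, Benjamini-Hochberg over all genes tested, threshold 0.05; R 4.3.3). The state comparisons were fitted on all 22 libraries, the treatment comparisons on the libraries concerned. The SE is the log2 fold change divided by the root of the F statistic. DESeq2 1.42.0, limma voom 3.58.1, RLE factors, no filter, fewer libraries and leaving out each library were alternatives. The fit was tested on simulated data.

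Positions are from GENCODE M21 (GRCm38). The named genes are the 9 members, up to 3 called genes per pathway list, direction and comparison with the largest change, and the 3 genes most like each member with a mean log2 CPM of at least 1, among genes with a mean of at least 3 (pseudocount 0.5); 1 of these is not reported here. The members and lists were chosen with earlier results of these data known. Promoter sequences are RefSeq's, with entries for 5 of the 9 genes; Fgf8, Fgf15, Fgf17 and Fgfr1 had none. Intervals and floors cover counting error only. No column was left unassigned to a library, and no pair of the 231 held identical counts.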

Additional observations from a re-analysis of the deposited data

Results flagged for a closer look

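In groups of 4 to 10 libraries, 2 of 30 sets of levels held a library far from the others. The rule used flags about 1 in 20 sets of normally distributed values by chance, a rate that need not hold for counts near 0. Fgf5 was at 1.23 CPM (4 counts) in the A769662 library of Oct4GIP after 10 passages and had no count in the other 6. Fgf8 was at 6.02 CPM (16 counts) in the AICAR+LIF library of d16, and the next of the 4 libraries was at 0.401 CPM (1 count).

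Fgfr1 moved in opposite directions with AICAR on the 2 days. Both AICAR libraries were above both others at d8, by a mean of 0.35 on the log2 scale, and below both at d16, by -0.37. This difference between days was not tested, and the d8 libraries with AICAR have the smallest totals.

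Fgfr2 changed differently from primed cells to 10 passages in the 2 lines, by -6.35 on the log2 scale in 129/MSM relative to Oct4GIP (adjusted p = 0.00545, edgeR interaction), and the interaction was called under 11 of 11 alternative settings, all of which keep both primed libraries. With 1 primed library per line, this test holds no spread of primed cells.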

How the results depend on the processing

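Of 533 values of 40 log2 fold changes of single genes under alternative settings, 471 kept their direction and their side of the threshold (260 with 1 library left out and 211 under other settings), 42 lost significance, 18 gained it and 2 reversed, and DESeq2 gave no adjusted p for 3. The calls of Fgf4, Fgf5 and Fgf8 between d16+10p and primed cells held under all 15 settings. The reversed value is that of Fgfr2 between d16+10p and primed cells, which was 2.75 with only Oct4GIP libraries and ranged from -1.54 to 2.41 with 1 library left out, the highest without 129/MSM primed cells. Counts of the 9 genes called changed as follows, and the cause was not tested. Between d16+10p and primed cells limma voom called 3 in place of 5, and leaving out 1 library gave 3 to 5. Between 10 and 2 or 3 passages DESeq2 called 1 in place of 0, and leaving out 1 library gave 0 to 1. Between d16+2-3p and d16, leaving out 1 library gave 6 to 7 in place of 6. Between d8 and primed cells, leaving out 1 library gave 4 to 7 in place of 5. Between d16 and primed cells only Oct4GIP libraries gave 4 in place of 7, and leaving out 1 library gave 4 to 8. From d8 to d16 limma voom, no filter, and leaving out totals under 1000000 each gave 2 in place of 1, and leaving out 1 library gave 0 to 1. In 2iL against Basal medium no filter gave 1 in place of 0. With AICAR no filter gave 4 in place of 2, leaving out totals under 1000000 gave 0, no term for the day gave 0, and leaving out 1 library gave 1 to 3. Between the lines after 10 passages limma voom gave 0 in place of 1, and leaving out 1 library gave 0 to 1. The interaction of line and reversion could not be fitted without either primed library. The labels give no replicate numbers to pair libraries by, so libraries were matched by condition instead. The comparison of d16 with d8 was matched by treatment and that of AICAR by day. That of LIF after expansion was paired by line and passage. At these depths, Fgf17 everywhere, Fgf8 after expansion, and Fgf15, Fgfr3 and Fgfr4 outside the early cultures lay near the floor of 3 counts. So did Fgfr3 with AICAR+LIF at d8 (4 counts), and the pair of AICAR libraries at d8 is the shallowest.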
